A study of Homo sapiens with 24 samples.

Results

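The 40 genes described here encode the machinery of autophagy and of the lysosome, the compartment in which autophagy ends. They comprised 25 genes of the autophagy core, 2 cargo receptors and 13 lysosomal genes, and their entries were found by gene symbol. Of 34229 genes listed in the expression tables, 39 members were found under their own symbol, and ATG101 was found under its older symbol C12orf44. RNA was sequenced in 24 libraries of the glioma cell lines 1321N1 (labelled grade II) and LN18 (labelled grade IV), with 3 libraries in each of 8 groups. Cells of each line received vehicle (the study describes it as ethanol), epigallocatechin-3-gallate (EGCG, a catechin of green tea), hydroxychavicol (HC, a phenol of betel leaf) or EGCG+HC, and were collected after 24 h. EGCG was given at 50 µg/ml to both lines, alone and in the combination. The HC dose was 20 µg/ml for 1321N1 and 10 µg/ml for LN18, again alone and in the combination, so that dose and line cannot be told apart where responses to HC are compared between lines. The paper also describes a different share of foetal bovine serum in the medium of each line, so that serum and line cannot be told apart in any comparison of the lines. Each line is a single established culture, and the labels describe the libraries of a group as independent tests. Only transcript levels were measured, not the proteins, their lipidation or the passage of cargo to the lysosome.

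Macroautophagy encloses cytoplasm in a membrane sac, the autophagosome, that fuses with the lysosome, where acid hydrolases digest its content. The ULK kinase complex starts the process, the class III phosphatidylinositol 3-kinase complex marks the growing membrane, and ubiquitin-like conjugation systems attach proteins of the ATG8 family (LC3 and GABARAP proteins) to it. These proteins bind cargo receptors, while the vacuolar proton pump (V-ATPase) acidifies the lysosome and transcription factors of the MiT/TFE family switch on many genes of both compartments. In glioma the pathway is studied as a response to stress and to drugs.

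Expression is given as RPKM, reads per kilobase of transcript scaled to the number of counted reads, so that gene length and depth are taken into account. This scaling does not correct for differences in composition between libraries. All genes summed to 263663 to 266291 RPKM in LN18 controls and to 293404 to 294110 RPKM with EGCG+HC. The 1321N1 libraries lay between 267092 and 276492 RPKM. The depth recovered from the values was 13.8 to 32.1 M counted reads per library (median 19.3 M). In 1321N1, EGCG libraries 2 and 3 stood apart: 263 genes were listed at 0 in both while exceeding 1 RPKM in EGCG library 1, and none of the 40 members was among them (0 of 263). Counts of members called in comparisons that use these libraries are also given without them, and so are single calls lost there. Other values, such as medians and ranges, include them. Of 10 markers of astrocytes and glioma, VIM had means of 171 to 982 RPKM over the 8 groups. SOX9 had means of 2.51 to 12.9 RPKM, and GFAP at or below 0.257 RPKM, while SOX2 stood at 0 in the 3 groups whose tables list it. SLC1A3 had control means of 0.258 RPKM in 1321N1 and 11.6 RPKM in LN18, and NES of 1.31 and 0.0393 RPKM. ALDH1L1 and S100B had means at or below 0.0983 RPKM where listed, and AQP4 and OLIG2 were not listed. Of 5 neuron markers, TUBB3 was not listed, and the sum of those listed had means of 0.494 to 3.45 RPKM over the 8 groups. Of 4 epithelial markers, KRT18 had control means of 10.6 RPKM in 1321N1 and 90.2 RPKM in LN18, and KRT8 of 1.28 and 46.2 RPKM. EPCAM and CDH1 were highest in LN18 with HC, at means of 0.694 and 0.946 RPKM. GFAP, the defining marker of mature astrocytes, was thus near 0 in lines labelled as glioma. Of 5 blood and microglia markers, AIF1 was not found in the tables and HBB was listed in LN18 (at or below 0.245 RPKM). The sum of those listed was 23.5 to 25.6 RPKM in 1321N1 controls, at most 32.8 RPKM with EGCG, 35.5 to 36.2 RPKM with HC and 32.6 to 32.9 RPKM with EGCG+HC, and in LN18 17.3 to 20.2, 40.5 to 43.5, 25.3 to 28.5 and 31.0 to 32.0 RPKM in the same order. Most of it was CD68, a lysosomal membrane protein as well as a macrophage marker, at means of 18.3 to 41.8 RPKM. CD14 had means of 0.288, 0.237, 2.04 and 2.85 RPKM in 1321N1 and of 0.171, 0.255, 0.187 and 3.15 RPKM in LN18, again in that order of groups. PTPRC, the defining marker of blood cells, had means of 0.085 and 0.445 RPKM in control and EGCG+HC cells of 1321N1 and of 0.0177 and 0.203 RPKM in those of LN18. These markers thus moved with treatment as well, and their part in the results was not tested.

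In vehicle-treated cells nearly the whole set was expressed. At least 1 RPKM was reached by 37 of the 40 genes in 1321N1 (median of these 9.31 RPKM) and by 38 in LN18 (9.80), against medians of 6.96 and 7.12 RPKM over the 13096 and 12976 genes at or above that level. CTSD, the aspartic protease cathepsin D, was the most abundant member in both lines, at 86.7, 75.3 and 76.1 RPKM in 1321N1 and 114, 94.9 and 106 RPKM in LN18. The lowest members were ULK2 in 1321N1, with a mean of 0.00283 RPKM, and TFEB in LN18, with a mean of 0.567 RPKM. ULK2 (a kinase related to ULK1) and TFEB (a MiT/TFE factor) stayed under a mean of 1 RPKM over the libraries fitted and were not tested, which left 38 members. GABARAPL1 had a low level in 1321N1 controls and passed the filter in comparisons of that line through its treated libraries, and in the comparison of controls through the LN18 libraries (1321N1 mean 0.631 RPKM), so that a call there had to go in that direction.

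GABARAPL1 and GABARAPL2, of the ATG8 family, had the largest differences called between controls of the lines. GABARAPL1 stood at 0.537, 0.654 and 0.702 RPKM in 1321N1 controls and at 10.3, 9.47 and 9.75 RPKM in LN18 controls. GABARAPL2 stood at 21.7, 19.8 and 21.1 RPKM in 1321N1 controls and at 86, 90.2 and 86.8 RPKM in LN18 controls. For both genes every LN18 control lay above every 1321N1 control. On the log2(RPKM + 1) scale, GABARAPL1 was higher in LN18 by 2.73 (SE 0.061, adjusted p = 3.3e-08 in limma) and GABARAPL2 by 2.02 (SE 0.0435, adjusted p = 2.89e-08). A gene was called where the adjusted p was at most 0.05 over all genes tested and the fold change at least 1.5. By this measure 10 members were higher and 2 lower in LN18 controls, while 42.6% of all 13293 genes tested were called (21.9% higher, 20.7% lower, 80.4% by the adjusted p alone). The other genes higher in LN18 were MAP1LC3B (log2 fold change 1.35), ATG4A (1.46), NBR1 (1.04), MAP1LC3A (1.01), WIPI1 (0.86), ATG2A (0.80), ATP6V0D1 (0.74) and ATG13 (0.61, lost under quantile normalization at 0.58 and on rescaling at 0.56). The 2 lower genes were lysosomal, namely CTSL, the cysteine protease cathepsin L (-1.89), and LAMP1, a heavily glycosylated protein of the lysosomal membrane (-1.32).

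**Figure D1:**
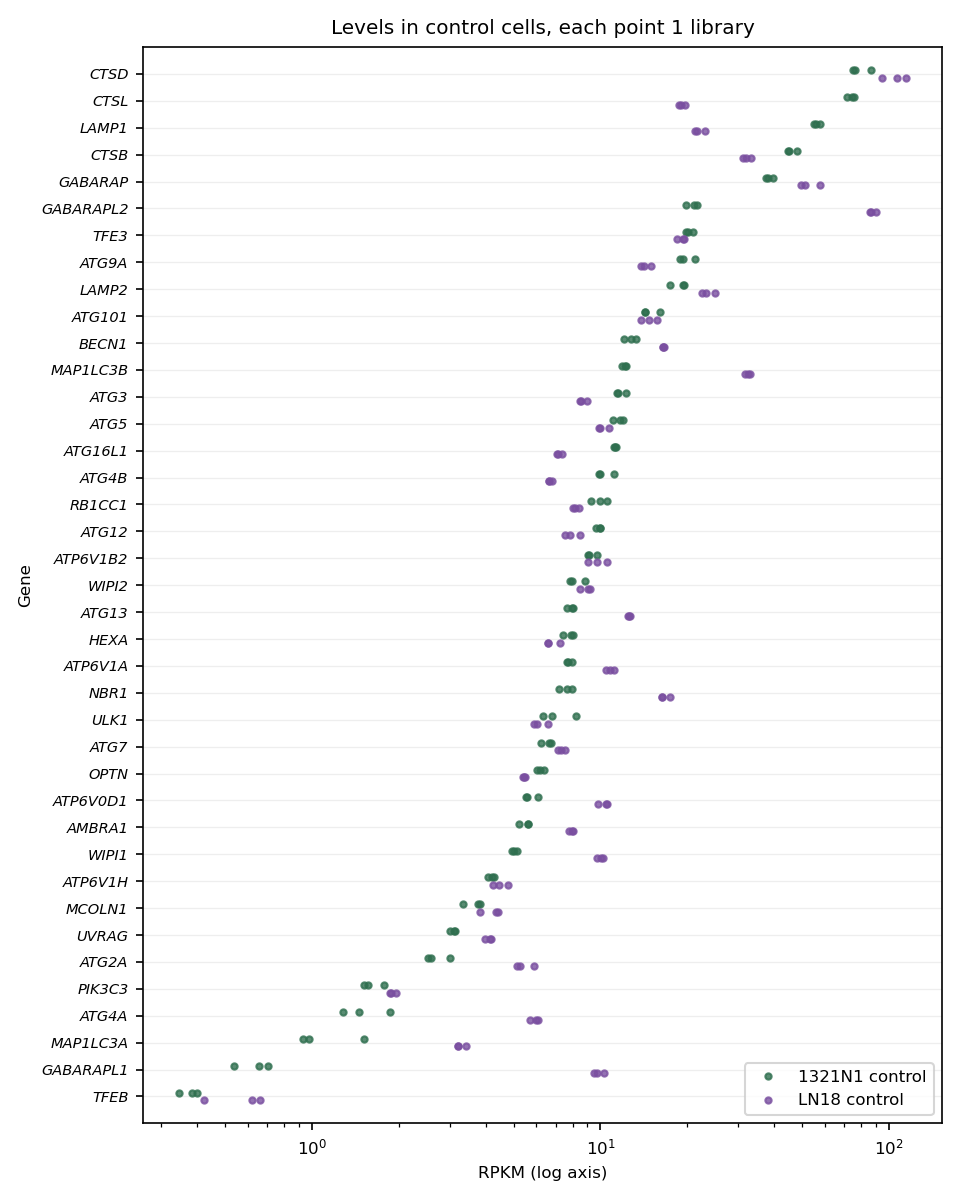
Level of each member in the control libraries of 1321N1 (green) and LN18 (purple), in RPKM on a log axis, with 1 point per library and genes ordered by their 1321N1 mean. ULK2, listed at 0 in 2 of the 1321N1 controls, is not drawn. The LN18 points of GABARAPL1 and GABARAPL2 lie to the right of the 1321N1 points without overlap, and those of CTSL and LAMP1 to the left.

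Treatment with HC alone raised more of these genes in 1321N1 than the other treatments did in either line. With HC, 21 members were called higher and 0 lower in 1321N1 (55.3% of the 38 tested, 3 lower at an unadjusted p under 0.05 in limma), where 36.6% of all genes were called, 18.8% higher and 17.7% lower. With EGCG+HC, 13 were higher and 1 lower in the same line (36.8%), where 41.1% of all genes were called (23.1% higher, 18.0% lower). EGCG alone gave 2 higher and 0 lower (5.26%, 3 lower at an unadjusted p under 0.05 in limma), against 4.97% of all genes (3.14% higher, 1.83% lower). In bulk RNA, fewer cells of a kind and less RNA per cell cannot be told apart. Counted over both directions, the share called with EGCG+HC or EGCG was thus close to that of all genes. By direction, the calls with EGCG+HC were 13 higher and 1 lower of 38, where 23.1% of all genes were higher and 18.0% lower. The median log2 fold change was 0.40 with EGCG+HC and 0.60 with HC, compared with -0.01 for all genes in both comparisons. With EGCG it was 0.11, compared with 0.10. The members were chosen with earlier results of these data known, so that their shares and medians are not independent of these data.

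In LN18 the members called with HC were 8 higher and 0 lower (21.1%, 3 lower at an unadjusted p under 0.05 in limma), where 11.7% of all genes were called (9.48% higher, 2.26% lower). EGCG+HC gave 8 higher and 2 lower (26.3%), against 46.3% of all genes (24.1% higher, 22.2% lower). EGCG gave 6 higher and 0 lower (15.8%, 5 lower at an unadjusted p under 0.05 in limma), against 18.8% of all genes (9.11% higher, 9.70% lower). The median log2 fold change of the members was 0.18 with HC, 0.31 with EGCG+HC and 0.29 with EGCG, compared with 0.10, 0.01 and 0.03 over all genes. The fold limit set many of these calls. By the adjusted p alone, 34 members passed with EGCG+HC in 1321N1 (80.9% of all genes), 19 with EGCG (40.1%) and 33 with HC (76.6%), and in LN18 35 (84.0%), 34 (71.3%) and 23 (55.4%) in that order. Against the single agents, EGCG+HC then gave 32 members in 1321N1 (79.0%) and 28 in LN18 (82.3%) for EGCG, and 34 (70.4%) and 28 (81.5%) for HC.

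**Figure D2:**
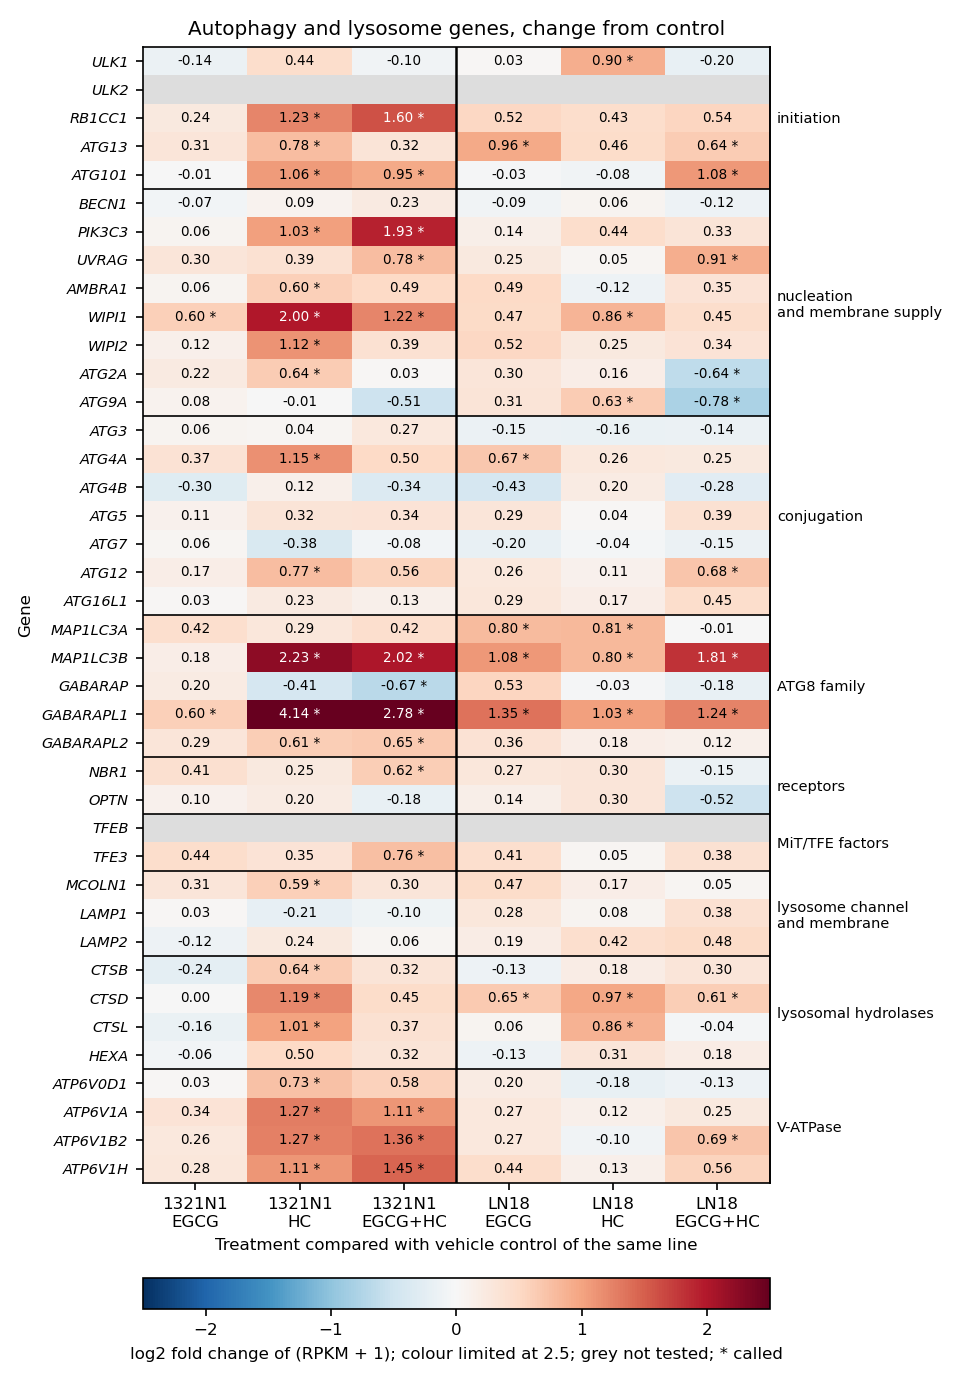
Log2 fold change of (RPKM + 1) for each member (rows, grouped by role) with EGCG, HC and EGCG+HC against the vehicle control of the same line (columns), with called values starred and untested genes in grey. GABARAPL1 and MAP1LC3B carry the deepest red in 1321N1, at 4.14 and 2.23 with HC, while the conjugation and lysosomal membrane genes are mostly pale.

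Across the 6 comparisons with control, GABARAPL1 and MAP1LC3B were the 2 members called higher in at least 5. The share of all genes with that pattern was not computed, so that the count of 2 has no background to be read against. Both belong to the ATG8 family, whose proteins are joined to phosphatidylethanolamine on the autophagosome membrane. In 1321N1, GABARAPL1 rose from 0.537, 0.654 and 0.702 RPKM in controls to 27.3, 27.4 and 28.5 RPKM with HC and to 9.89, 10.4 and 10.3 RPKM with EGCG+HC, and stood at 1.28, 1.59 and 1.53 RPKM with EGCG. The 4 groups did not overlap, and HC gave the highest level. The ratio of mean RPKM to control was 44 with HC, 16.2 with EGCG+HC and 2.32 with EGCG, and the log2 fold changes of (RPKM + 1) were 4.14 (SE 0.0532, adjusted p = 9.44e-09), 2.78 (SE 0.0559, adjusted p = 5.45e-08) and 0.60 (SE 0.0927, adjusted p = 0.00449). The pseudocount of 1 RPKM exceeds the control level of this gene and so understates its folds. Its EGCG call in 1321N1 was lost on rescaling over genes other than mitochondrial ones (0.58) and without control library 1 (0.55). Without EGCG libraries 2 and 3 of 1321N1 its mean fell under the limit of 1 RPKM in the EGCG comparison, and it was not tested there.

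In LN18, GABARAPL1 started from 10.3, 9.47 and 9.75 RPKM in controls and stood at 26.5, 26.5 and 26.8 RPKM with EGCG, 21.0, 21.5 and 21.1 RPKM with HC and 25, 24.2 and 24.5 RPKM with EGCG+HC. All treated libraries lay above all controls, with EGCG the highest group. The log2 fold changes were 1.35 (SE 0.0354, adjusted p = 1.04e-06), 1.03 (SE 0.0443, adjusted p = 6.13e-06) and 1.24 (SE 0.0384, adjusted p = 1.65e-07) in that order. An antisense gene, GABARAPL1-AS1, overlaps exons of GABARAPL1 (chr12:10365057-10375727 in GRCh37, forward strand) and was not found in the tables. The library kit does not keep the strand, so that reads of this pair cannot be told apart.

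MAP1LC3B, which encodes LC3B, the usual marker protein of autophagosomes, stood at 11.9, 12.3 and 12.2 RPKM in 1321N1 controls, 13.8, 14.0 and 13.7 RPKM with EGCG, 59.8, 60.8 and 60.8 RPKM with HC and 52.7, 52.6 and 50.9 RPKM with EGCG+HC. In LN18 it stood at 32.6, 33 and 31.6 RPKM in controls, 70.5, 68.5 and 69.6 RPKM with EGCG, 55.9, 57.6 and 58.1 RPKM with HC and 116, 117 and 115 RPKM with EGCG+HC. Within each line the 4 groups did not overlap, with HC highest in 1321N1 and EGCG+HC highest in LN18. Log2 fold changes against control were 2.23 (SE 0.032, adjusted p = 1.22e-08) with HC and 2.02 (SE 0.0324, adjusted p = 2.52e-08) with EGCG+HC in 1321N1. The change with EGCG in that line was 0.18 and was not called. In LN18 they were 1.08 with EGCG, 0.80 with HC and 1.81 (SE 0.0263, adjusted p = 2.11e-08) with EGCG+HC. MAP1LC3B2, a near-identical gene to which reads may be shared, had a control mean of 0.685 RPKM in 1321N1 and means of 1.68 (EGCG), 3.76 (HC) and 3.17 RPKM (EGCG+HC) after treatment, and of 2.72, 6.17, 5.12 and 8.99 RPKM for the LN18 groups in that order.

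The remaining ATG8 genes were called in fewer comparisons with control, and not all upward. GABARAP, the founding member of its branch, was the 1 member called lower in 1321N1 with EGCG+HC, from 39.8, 37.5 and 38.2 RPKM to 24.9, 24.2 and 22.2 RPKM (log2 fold change -0.67, SE 0.0493, adjusted p = 1.08e-05), without overlap. GABARAPL2 was called higher in 1321N1 with HC (0.61) and with EGCG+HC (0.65), and both calls were lost on rescaling over genes other than mitochondrial ones (0.53 and 0.58), the one with HC also without control library 2 (0.57) or HC library 2 (0.55). MAP1LC3A was called higher in LN18 with EGCG (0.80) and with HC (0.81), and its change with EGCG+HC was -0.01. Its libraries read 3.22, 3.21 and 3.41 RPKM in LN18 controls, 6.56, 6.61 and 6.14 RPKM with EGCG, 6.10, 6.86 and 6.52 RPKM with HC and 3.41, 3.05 and 3.27 RPKM with EGCG+HC. The 2 single treatments thus lay above both other groups, which overlapped.

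Promoter sequences of GABARAPL1 and MAP1LC3B are shown because these genes changed in most comparisons. The sequences are those of RefSeq in GRCh38, the 250 bases before the start of the gene, 5′ to 3′ on its own strand. For GABARAPL1 (chr12:10212627-10212876, forward strand), capitals mark TGACGTCA, the cAMP response element, which was added to the motifs searched after this sequence had been read. For MAP1LC3B (chr16:87392086-87392335, forward strand), capitals mark TGACNNNGC, the core of the antioxidant response element.
GABARAPL1: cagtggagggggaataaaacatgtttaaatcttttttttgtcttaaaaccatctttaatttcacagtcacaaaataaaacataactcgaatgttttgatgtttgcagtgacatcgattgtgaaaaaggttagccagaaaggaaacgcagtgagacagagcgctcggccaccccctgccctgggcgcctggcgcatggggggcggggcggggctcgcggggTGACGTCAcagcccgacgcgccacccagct
MAP1LC3B: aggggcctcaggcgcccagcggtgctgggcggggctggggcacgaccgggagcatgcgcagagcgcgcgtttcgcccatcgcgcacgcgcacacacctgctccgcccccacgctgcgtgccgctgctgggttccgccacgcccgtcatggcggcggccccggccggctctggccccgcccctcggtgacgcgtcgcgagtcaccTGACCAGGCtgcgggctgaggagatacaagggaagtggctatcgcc

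Motif letters were searched on both strands of windows of 250 bases before to 50 after the start, for which 31 of the 40 members matched an entry among 27305 genes. TGACGTCA was found in 1.98% of all windows and in 1 of the 31 members, GABARAPL1. TGACNNNGC was found in 13.6% of all windows and in 6 of the 31, namely ATG101, ATP6V0D1, CTSD, CTSL, LAMP1 and MAP1LC3B. TGATGNAA, a site of ATF4, was found in 3.67% of all windows and in 0 of the 31, and GTAAACA, a site of FOXO factors, in 3.41% and in 1, CTSL. A match of letters does not show that a factor binds there.

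**Figure D3:**
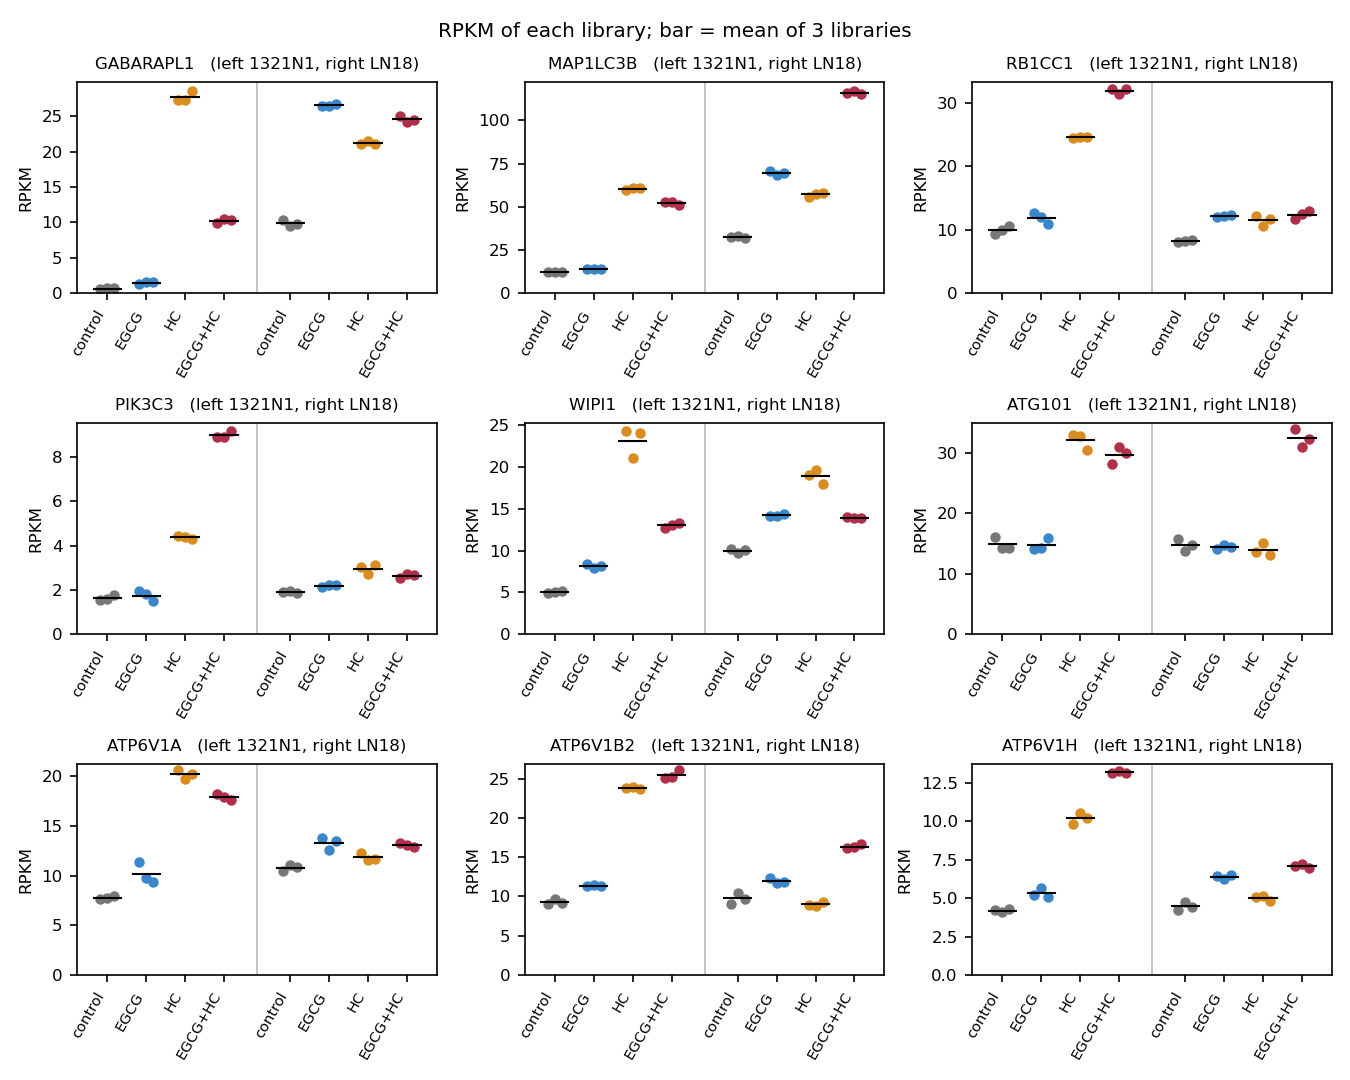
RPKM of every library for 9 members (points; bars give means of 3 libraries) in control, EGCG, HC and EGCG+HC cells of 1321N1 (left of the grey line) and LN18 (right), with each axis starting at 0. GABARAPL1 and WIPI1 are highest with HC in 1321N1, PIK3C3 and RB1CC1 with EGCG+HC, and ATG101 in LN18 is higher with EGCG+HC than with either single agent.

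Among the initiation genes, RB1CC1 encodes FIP200, the scaffold of the ULK complex. It stood at 9.26, 9.95 and 10.5 RPKM in 1321N1 controls, 12.6, 12.0 and 10.9 RPKM with EGCG, 24.4, 24.7 and 24.6 RPKM with HC and 32.2, 31.5 and 32.2 RPKM with EGCG+HC. Every treated library lay above every control, and EGCG+HC was the highest group. The log2 fold changes were 1.23 (SE 0.0484, adjusted p = 6.05e-07) with HC and 1.60 (SE 0.0473, adjusted p = 1.73e-07) with EGCG+HC. In LN18 the controls read 8.03, 8.18 and 8.40 RPKM, and all treated libraries lay between 10.6 and 12.9 RPKM. The 3 LN18 changes (0.43 to 0.54) stayed under the fold limit.

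ATG101, which stabilises ATG13 in the ULK complex, separated the lines by treatment. It stood at 16.0, 14.3 and 14.3 RPKM in 1321N1 controls, 14.1, 14.3 and 15.8 RPKM with EGCG, 33, 32.8 and 30.5 RPKM with HC and 28.1, 31.0 and 29.9 RPKM with EGCG+HC. In LN18 it stood at 15.7, 13.8 and 14.8 RPKM in controls, 14.2, 14.8 and 14.4 RPKM with EGCG, 13.5, 15.1 and 13.1 RPKM with HC and 34.0, 30.9 and 32.3 RPKM with EGCG+HC. In 1321N1 both groups with HC lay above control and EGCG, whereas in LN18 the combination lay above 3 groups that overlapped. Log2 fold changes in 1321N1 were 1.06 with HC and 0.95 with EGCG+HC (adjusted p = 2.4e-06 and 4.01e-06). In LN18 the change with EGCG+HC was 1.08 (SE 0.0551, adjusted p = 1.37e-06), and the changes with EGCG (-0.03) and HC (-0.08) were not called.

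ATG13, the adaptor that holds the ULK complex together, was called higher in 1321N1 with HC (0.78) and in LN18 with EGCG (0.96) and EGCG+HC (0.64). The last call was lost on rescaling over genes other than mitochondrial ones (0.54). ULK1, the kinase of the complex, was called in 1 comparison with control, from 5.86 to 6.58 RPKM in LN18 controls to 11.7 to 13.2 RPKM with HC (0.90, adjusted p = 3.39e-05), and lay at 4.99 to 5.43 RPKM with EGCG+HC. ULK2 was not tested, and its libraries read 0 to 0.0085 RPKM in 1321N1 controls and 0.239 to 0.358 RPKM with EGCG+HC. In LN18, ULK2 lay between 0.703 and 1.16 RPKM in all 12 libraries.

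Nucleation depends on a lipid kinase complex in which PIK3C3 (VPS34) is the catalytic subunit, BECN1 and UVRAG are regulators and AMBRA1 is a Beclin partner. PIK3C3 stood at 1.52, 1.57 and 1.78 RPKM in 1321N1 controls, 1.95, 1.79 and 1.48 RPKM with EGCG, 4.43, 4.38 and 4.29 RPKM with HC and 8.89, 8.91 and 9.18 RPKM with EGCG+HC. EGCG overlapped control, HC lay above both, and EGCG+HC lay above HC. The log2 fold changes were 1.03 (SE 0.0596, adjusted p = 3.56e-06) with HC and 1.93 (SE 0.0523, adjusted p = 1.25e-07) with EGCG+HC. In LN18, PIK3C3 read 1.88, 1.95 and 1.86 RPKM in controls and 2.52, 2.73 and 2.65 RPKM with EGCG+HC, a change of 0.33 that was not called.

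The other subunits of the complex moved apart from PIK3C3. UVRAG was called higher with EGCG+HC in both lines, at 0.78 in 1321N1 and 0.91 in LN18 (adjusted p = 5.33e-06 and 1.24e-06), and with neither single agent in either. Its controls lay at 3 to 3.13 RPKM in 1321N1 and 3.98 to 4.16 RPKM in LN18, and its EGCG+HC libraries at 5.64 to 6.20 and 8.16 to 8.96 RPKM. In 1321N1 the libraries with EGCG (3.93 to 4.12 RPKM) and HC (4.12 to 4.49 RPKM) also lay above every control. Their ratios of mean RPKM to control, 1.30 and 1.41, stayed under the fold limit. In LN18 the EGCG libraries (4.84 to 5.22 RPKM) lay above control, and those with HC overlapped it. BECN1 was called in none of the 6 comparisons with control (0 of 6), with log2 fold changes between -0.12 and 0.23. AMBRA1 was called once, with HC in 1321N1 (0.60), and that call was lost under quantile normalization, on rescaling over genes other than mitochondrial ones and without control library 3 (0.53 to 0.57).

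WIPI1 and WIPI2 bind the phosphatidylinositol 3-phosphate made by the complex. WIPI1 stood at 4.95, 5.01 and 5.13 RPKM in 1321N1 controls, 8.40, 7.86 and 8.20 RPKM with EGCG, 24.4, 21.1 and 24.1 RPKM with HC and 12.7, 13.0 and 13.3 RPKM with EGCG+HC. These 4 groups did not overlap and HC was again highest. The log2 fold changes were 2.0 (SE 0.0598, adjusted p = 1.87e-07) with HC, 1.22 (SE 0.0377, adjusted p = 2.06e-07) with EGCG+HC and 0.60 (SE 0.0431, adjusted p = 0.000414) with EGCG. The EGCG call lay at the fold limit and was lost under quantile normalization, on rescaling and without EGCG library 1 (0.50 to 0.58). In LN18, WIPI1 stood at 10.2, 9.71 and 10.0 RPKM in controls and 19.1, 19.7 and 18.0 RPKM with HC, a called change of 0.86. Its other LN18 groups lay between, at 14.1 to 14.4 RPKM with EGCG and 13.9 to 14.0 RPKM with EGCG+HC (0.47 and 0.45, not called). WIPI2 was called with HC in 1321N1 (1.12, from 7.83 to 8.84 RPKM in controls to 18.7 to 19.6 RPKM) and in no other comparison with control. Exons of WIPI1 (chr17:66417089-66453654 in GRCh37, reverse strand) overlap those of ARSG, and without strand the reads of the overlap cannot be told apart. The same limit holds for other members whose exons overlap those of another gene. Among these are MAP1LC3B (FBXO31), ATG12 (AP3S1), ATG13 (HARBI1), ATG101, ATG9A, UVRAG, GABARAP, NBR1, ATP6V1A and CTSD.

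ATG2A transfers lipid to the growing membrane and ATG9A supplies it with vesicles and scrambles its lipids. Both were called lower in LN18 with EGCG+HC. ATG9A stood at 15.0, 14.2 and 13.8 RPKM in LN18 controls, 18.1, 18.0 and 18.0 RPKM with EGCG, 23.4, 22.8 and 21.9 RPKM with HC and 8.17, 7.93 and 7.62 RPKM with EGCG+HC. Both single agents gave levels above control and the combination gave levels below it, with no overlap between any 2 groups. The log2 fold change was 0.63 with HC (adjusted p = 4.57e-05) and -0.78 with EGCG+HC (SE 0.043, adjusted p = 2.01e-06), and ATG9A was the 1 member called in opposite directions with HC and EGCG+HC in a line. The HC call was lost under quantile normalization (0.58), which moved the median of all genes by -0.13 in that comparison. ATG2A fell from 5.14 to 5.89 RPKM in LN18 controls to 3 to 3.33 RPKM with EGCG+HC (-0.64), and rose with HC in 1321N1 (0.64, lost on rescaling at 0.57). In 1321N1, ATG9A read 18.8 to 21.3 RPKM in controls and 13.3 to 13.8 RPKM with EGCG+HC (-0.51, under the fold limit).

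Of the 7 conjugation genes, ATG3, ATG4B, ATG5, ATG7 and ATG16L1, which encode the E2-like enzyme of the ATG8 pathway, a protease of ATG8 proteins, the acceptor of ATG12, the E1-like enzyme and the partner of ATG5, were called in none of the 6 comparisons with control. Their log2 fold changes ran from -0.43 (ATG4B in LN18 with EGCG) to 0.45 (ATG16L1 in LN18 with EGCG+HC). ATG4A, another protease that processes ATG8 proteins, was called higher in 1321N1 with HC, from 1.28 to 1.87 RPKM in controls to 4.39 to 4.96 RPKM (1.15, SE 0.0953, adjusted p = 2.36e-05), and in LN18 with EGCG (0.67). ATG12, the ubiquitin-like protein joined to ATG5, was called higher in 1321N1 with HC (0.77) and in LN18 with EGCG+HC (0.68). In LN18 it rose from 7.54 to 8.47 RPKM in controls to 13.1 to 13.7 RPKM. In 1321N1 its change with EGCG+HC was 0.56, just under the fold limit.

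Of the 2 cargo receptors, 1 was called against control. NBR1, a receptor of ubiquitinated cargo, was called in 1 comparison with control, 1321N1 with EGCG+HC, where it rose from 7.17 to 7.97 RPKM to 12.0 to 12.4 RPKM (0.62, adjusted p = 1.08e-05). That call was lost on rescaling over genes other than mitochondrial ones (0.56). OPTN, a receptor for damaged mitochondria and bacteria, was called in none of the 6, and lay at 5.37 to 5.49 RPKM in LN18 controls and 3.39 to 3.66 RPKM with EGCG+HC (-0.52).

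Of the MiT/TFE factors, TFE3 was expressed well in both lines and TFEB hardly. TFE3 rose in 1321N1 with EGCG+HC from 20.9, 19.8 and 20.1 RPKM to 35.2, 35.3 and 34.3 RPKM (0.76, SE 0.0343, adjusted p = 1.05e-06), with EGCG (26.1 to 28.9 RPKM) and HC (26.0 to 26.3 RPKM) between and not called. In LN18 the TFE3 libraries lay between 18.4 and 26.3 RPKM in all 4 groups, and no comparison with control called it (changes of 0.05 to 0.41). TFEB read 0.347 to 0.399 RPKM in 1321N1 controls, 0.333 to 0.489 RPKM with EGCG, 0.993 to 1.22 RPKM with HC and 0.533 to 0.708 RPKM with EGCG+HC. In that line HC and EGCG+HC lay above control without overlap, while EGCG overlapped it. In LN18, TFEB read 0.422 to 0.658 RPKM in controls and 0.321 to 0.403 RPKM with EGCG+HC, which lay below control without overlap (ratio of means 0.646), and the groups with EGCG or HC overlapped control. The gene was under the limit on the mean and was not tested.

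The 3 genes of the lysosomal membrane were called against control once in all. LAMP1 and LAMP2, the abundant glycoproteins that line the lysosome, were called in none of the 6 comparisons with control (log2 fold changes -0.21 to 0.48). MCOLN1, the calcium channel TRPML1 of the lysosome, was called once, with HC in 1321N1 (0.59), and that call was lost under quantile normalization, on rescaling, and without control library 2 or HC library 3 (0.52 to 0.57).

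Of the 3 lysosomal proteases, CTSD and CTSL were called higher with HC in both lines and CTSB in 1321N1. CTSD stood at 86.7, 75.3 and 76.1 RPKM in 1321N1 controls, 70.8, 78.6 and 89.0 RPKM with EGCG, 191, 173 and 184 RPKM with HC and 111, 110 and 106 RPKM with EGCG+HC. In LN18 it stood at 114, 94.9 and 106 RPKM in controls, 163, 168 and 165 RPKM with EGCG, 209, 216 and 194 RPKM with HC and 167, 158 and 157 RPKM with EGCG+HC. In both lines HC gave the highest group, and EGCG overlapped control in 1321N1 but lay above it in LN18. The called changes were 1.19 (SE 0.0645, adjusted p = 2.57e-06) with HC in 1321N1 and 0.97 (SE 0.0754, adjusted p = 5.82e-05) with HC, 0.65 with EGCG and 0.61 with EGCG+HC in LN18. The LN18 call with EGCG+HC was lost under quantile normalization (0.43), on rescaling (0.51) and without control library 2 (0.54) or EGCG+HC library 1 (0.58), and the one with EGCG was lost without control library 2 (0.58).

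CTSL was called higher with HC in both lines. It rose from 71.5, 74.6 and 75.6 RPKM to 153, 151 and 147 RPKM (1.01, adjusted p = 3.46e-07) in 1321N1, and in LN18 from 18.8, 19.0 and 19.6 RPKM to 33.3, 38.4 and 35.3 RPKM (0.86, adjusted p = 2.69e-05). With EGCG+HC it read 93.1 to 98.2 RPKM in 1321N1 (0.37, not called) and 17.9 to 19.5 RPKM in LN18, where it overlapped control. CTSB, the cysteine protease cathepsin B, was called with HC in 1321N1 (0.64, lost on rescaling at 0.56) and nowhere else among the comparisons with control. HEXA, a subunit of beta-hexosaminidase that degrades gangliosides, was called in none of the 6, with its largest change at 0.50 with HC in 1321N1.

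All 4 V-ATPase members were called higher with HC in 1321N1, 3 of them also with EGCG+HC, and 1 was called in LN18, with EGCG+HC. ATP6V1A and ATP6V1B2, which form the ATP-hydrolysing head of the pump, stood at 7.62, 7.73 and 7.99 RPKM and at 9.09, 9.72 and 9.13 RPKM in 1321N1 controls. With HC, ATP6V1A rose to 20.6, 19.7 and 20.2 RPKM and with EGCG+HC to 18.2, 17.9 and 17.6 RPKM. ATP6V1B2 rose to 23.8, 24.0 and 23.7 RPKM with HC and to 25, 25.2 and 26.1 RPKM with EGCG+HC. For both subunits all libraries with HC, alone or combined, lay above all control and EGCG libraries. The log2 fold changes with HC and EGCG+HC were 1.27 and 1.11 for ATP6V1A and 1.27 and 1.36 for ATP6V1B2, with adjusted p between 1.61e-07 and 2.45e-07.

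ATP6V1H, a regulatory subunit of the head, stood at 4.21, 4.07 and 4.27 RPKM in 1321N1 controls, 5.21, 5.65 and 5.08 RPKM with EGCG, 9.80, 10.6 and 10.2 RPKM with HC and 13.2, 13.3 and 13.2 RPKM with EGCG+HC. The 4 groups were separate and EGCG+HC was highest (1.11 with HC, 1.45 with EGCG+HC, adjusted p = 7.22e-07 and 1e-07). ATP6V0D1, a subunit of the membrane part, was called with HC (0.73) and lay just under the fold limit with EGCG+HC (0.58). In LN18, ATP6V1B2 was the 1 V-ATPase member called, with 9.02, 10.5 and 9.71 RPKM in controls and 16.1, 16.3 and 16.7 RPKM with EGCG+HC (0.69, adjusted p = 1.15e-05). Its LN18 libraries with HC (8.79 to 9.35 RPKM) overlapped control. Without a call at the fold limit, all 4 V-ATPase members lay above every LN18 control after EGCG (ratios of mean RPKM 1.16 to 1.43). ATP6V1A and ATP6V1H did so after EGCG+HC (1.21 and 1.58) and after HC (1.10 and 1.11). ATP6V0D1 lay below every control after HC (0.872) and after the combination (0.906). How many of all genes lay apart from control in this way was not computed. By the adjusted p alone, 71.3% of all genes passed after EGCG in LN18. These positions are therefore not read as a response of the pump.

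Promoter sequences of CTSD and LAMP1 are shown as a pair of lysosomal genes with CACGTG, the E-box core that MiT/TFE and other basic helix-loop-helix factors bind, of which CTSD was called in 4 comparisons with control and LAMP1 in none. They are the 250 bases before the start in GRCh38 from RefSeq, 5′ to 3′, with CACGTG in capitals, at chr11:1763928-1764177 (reverse strand) for CTSD and chr13:113296989-113297238 (forward strand) for LAMP1.
CTSD: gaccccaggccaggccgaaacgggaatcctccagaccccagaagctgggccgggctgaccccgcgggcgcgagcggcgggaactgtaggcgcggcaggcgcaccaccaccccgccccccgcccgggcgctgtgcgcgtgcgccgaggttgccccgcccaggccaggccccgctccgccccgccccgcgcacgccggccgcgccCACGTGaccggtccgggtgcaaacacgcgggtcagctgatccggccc
LAMP1: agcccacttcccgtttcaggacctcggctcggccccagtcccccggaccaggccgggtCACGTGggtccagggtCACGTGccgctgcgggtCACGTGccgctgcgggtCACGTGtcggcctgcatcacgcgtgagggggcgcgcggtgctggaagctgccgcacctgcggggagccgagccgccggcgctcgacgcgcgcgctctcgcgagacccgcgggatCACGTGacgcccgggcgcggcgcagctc

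The stretch shown for LAMP1 holds CACGTG 5 times and that for CTSD 1 time. CACGTG was found in 7.43% of all windows and in 5 of the 31 member windows, those of ATG3, ATP6V0D1, CTSD, LAMP1 and MCOLN1. TCACGTGA, which contains CACGTG, was found in 1.04% of all windows and in 4 of the 31, those of ATG3, ATP6V0D1, LAMP1 and MCOLN1. GABARAPL1 and MAP1LC3B held neither in their windows. Sequence outside the windows and variants of these letters were not searched. Whether MiT/TFE factors act on any of these genes was not tested.

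Set against HC alone, EGCG+HC gave lower levels of several members in 1321N1. In that comparison 1 member was called higher and 7 lower (21.1% of 38), against 19.4% of all genes (12.2% higher, 7.23% lower). The 7 were GABARAPL1 (-1.36, SE 0.0329, adjusted p = 1.05e-06), WIPI1 (-0.78), CTSD (-0.74), WIPI2 (-0.73), CTSL (-0.64), ATG4A (-0.64) and ATG2A (-0.60), and PIK3C3 was higher (0.90, SE 0.0336, adjusted p = 2.86e-06). The ATG2A call was lost without EGCG+HC library 2 (-0.57). Of the 21 members called higher with HC in this line, 10 were also called higher with EGCG+HC and 11 were not called (AMBRA1, ATG12, ATG13, ATG2A, ATG4A, ATP6V0D1, CTSB, CTSD, CTSL, MCOLN1 and WIPI2). NBR1, TFE3 and UVRAG were called higher with EGCG+HC and with neither single agent. For each of them the EGCG and the HC libraries also lay above every control, at ratios of mean RPKM under the fold limit (1.21 to 1.41). The shares of all genes with these patterns were not computed, so that the counts are not read as a trait of the members.

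In LN18, EGCG+HC against HC gave 4 members higher and 6 lower (26.3%), against 45.4% of all genes (19.5% higher, 25.9% lower). ATG9A was the furthest apart (-1.41, SE 0.0424, adjusted p = 1.74e-07), followed by ATG101 (1.16, SE 0.0605, adjusted p = 1.47e-06). ULK1 (-1.09), CTSL (-0.91), MAP1LC3A (-0.82), OPTN (-0.82) and ATG2A (-0.80) were also lower, and MAP1LC3B (1.01), UVRAG (0.86) and ATP6V1B2 (0.79) higher. Against EGCG alone, EGCG+HC gave 9 members higher and 2 lower in 1321N1 (28.9%), where 39.6% of all genes were called (19.1% higher, 20.5% lower), led by GABARAPL1 (2.19) and PIK3C3 (1.87), and 11 higher and 1 lower without EGCG libraries 2 and 3, when WIPI1 (0.58) and ATG9A (-0.53) were no longer called. In LN18 the same comparison gave 3 higher and 5 lower (21.1%), against 37.0% of all genes (19.5% higher, 17.5% lower), led by ATG101 (1.11) and ATG9A (-1.10).

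**Figure D4:**
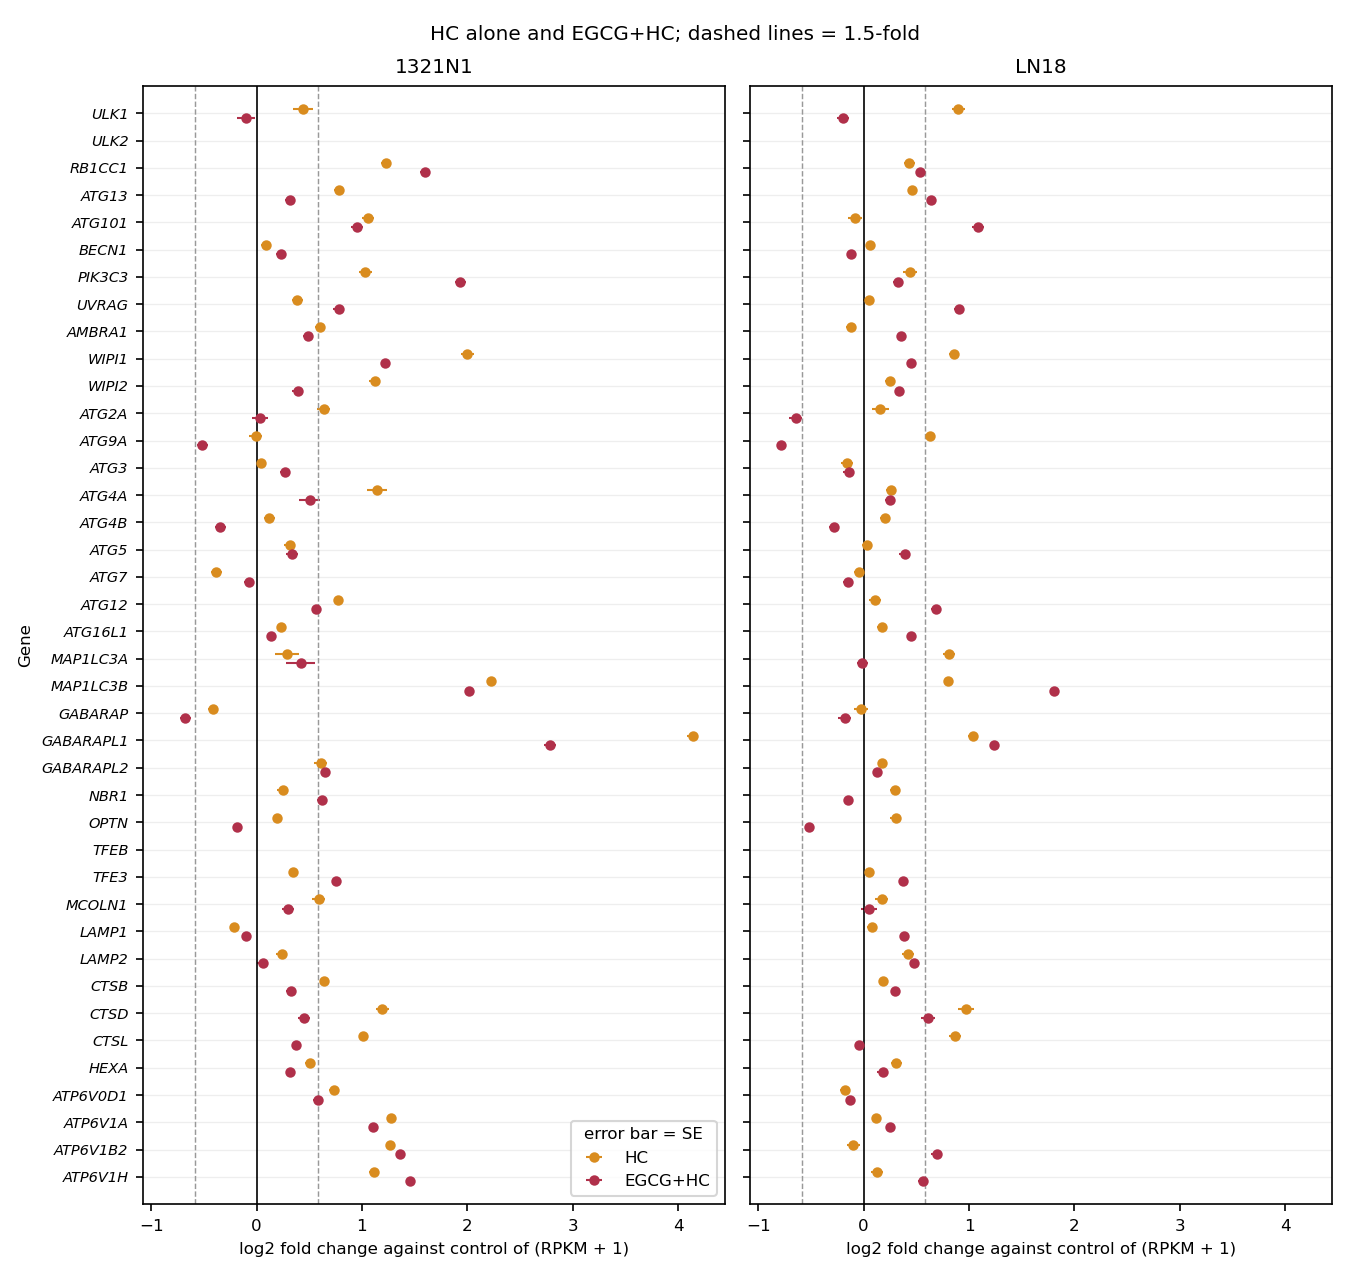
Log2 fold change of (RPKM + 1) against control for each member with HC (orange) and EGCG+HC (red) in 1321N1 (left) and LN18 (right), on a shared axis, with bars of 1 SE and dashed lines at 1.5-fold. In 1321N1 the EGCG+HC point of GABARAPL1 (2.78) lies to the left of its HC point (4.14) and that of PIK3C3 (1.93) to the right of its HC point (1.03), and in LN18 the 2 points of ATG9A lie on opposite sides of 0.

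Whether EGCG+HC exceeded or fell short of adding up both single changes was tested as an interaction on the log2 scale. By the adjusted p alone, 26 members passed this test in each line, against 61.1% of all genes in 1321N1 and 72.8% in LN18. In 1321N1 it was called for 1 member above the sum and 8 below (23.7%), against 23.1% of all genes (10.3% above, 12.8% below). PIK3C3 lay above the sum (0.84, SE 0.089, adjusted p = 1.62e-05), and GABARAPL1 (-1.95, SE 0.0788, adjusted p = 3.49e-08) and WIPI1 (-1.38, SE 0.0717, adjusted p = 1.3e-07) furthest below, followed by ATG4A, WIPI2, ATG2A, ATG13, CTSD and MCOLN1 (-1.01 to -0.60). The MCOLN1 interaction (-0.60) was also lost under quantile normalization (-0.47), on rescaling (-0.56) and without control library 2, EGCG library 3 or HC library 3 (-0.55, -0.55 and -0.58). Without EGCG libraries 2 and 3 of 1321N1 the counts were 1 and 7, and MCOLN1 (-0.49) and CTSD (-0.58) were no longer called. In LN18, 2 members lay above the sum and 13 below (39.5%), against 37.6% of all genes (14.5% above, 23.1% below). ATG101 (1.19) and UVRAG (0.61) lay above, and ATG9A (-1.73, SE 0.0527, adjusted p = 4.91e-10) and MAP1LC3A (-1.62, SE 0.0714, adjusted p = 5.5e-09) furthest below. The other 11 were ULK1, ATG13, WIPI1, ATG2A, ATG4A, GABARAP, GABARAPL1, NBR1, OPTN, CTSD and CTSL, at -1.15 to -0.68. ATG4A fell under the fold limit under quantile normalization (-0.49), and UVRAG on rescaling (0.54) and without EGCG or EGCG+HC library 3 (0.58 in both).

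The response of the 2 lines was compared by testing the difference between their changes. The lines also differed in the serum of their medium, for every treatment. For HC, 1 member had a larger change in LN18 and 14 a smaller one (39.5%), against 32.2% of all genes (19.6% larger, 12.6% smaller, 66.4% by the adjusted p alone). GABARAPL1 (-3.11, SE 0.0655, adjusted p = 5.55e-11) and MAP1LC3B (-1.43, SE 0.0423, adjusted p = 4.34e-10) differed most, and all 4 V-ATPase genes were among the 14 (-1.36 to -0.91). ATG9A was the 1 member with a larger change in LN18 (0.64). The PIK3C3 difference (-0.59) lay at the fold limit and was lost on rescaling (-0.52) and without any of 5 libraries left out singly, namely 1321N1 control 1 or 2, 1321N1 HC 1, LN18 control 2 or LN18 HC 2 (-0.58 to -0.54). For EGCG+HC, 0 members had a larger change in LN18 (6 at an unadjusted p under 0.05 in limma) and 10 a smaller one (26.3%), against 33.2% of all genes (15.0% larger, 18.2% smaller, 70.8% by the adjusted p alone). PIK3C3 (-1.61, SE 0.0647, adjusted p = 4.45e-09) and GABARAPL1 (-1.55, SE 0.064, adjusted p = 5.43e-09) led these. For EGCG, given at the same dose to both lines, 4 members had a larger change in LN18 and 0 a smaller one (10.5%, 3 smaller at an unadjusted p under 0.05 in limma), against 17.0% of all genes (5.59% larger, 11.4% smaller, 54.3% by the adjusted p alone). They were MAP1LC3B (0.90, SE 0.037, adjusted p = 5.94e-08), GABARAPL1 (0.75), CTSD (0.65, lost under quantile normalization at 0.57, and without 1321N1 EGCG library 1 at 0.57 or LN18 control library 2 at 0.58) and ATG13 (0.64), and the same number was called without EGCG libraries 2 and 3 of 1321N1. The GABARAPL1 difference depended on the pseudocount, at 0.33 (adjusted p = 0.0615) with 0.1 RPKM in place of 1 RPKM. The median difference over the members was -0.33 for HC, -0.25 for EGCG+HC and 0.16 for EGCG, compared with 0.10, -0.04 and -0.07 over all genes.

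**Figure D5:**
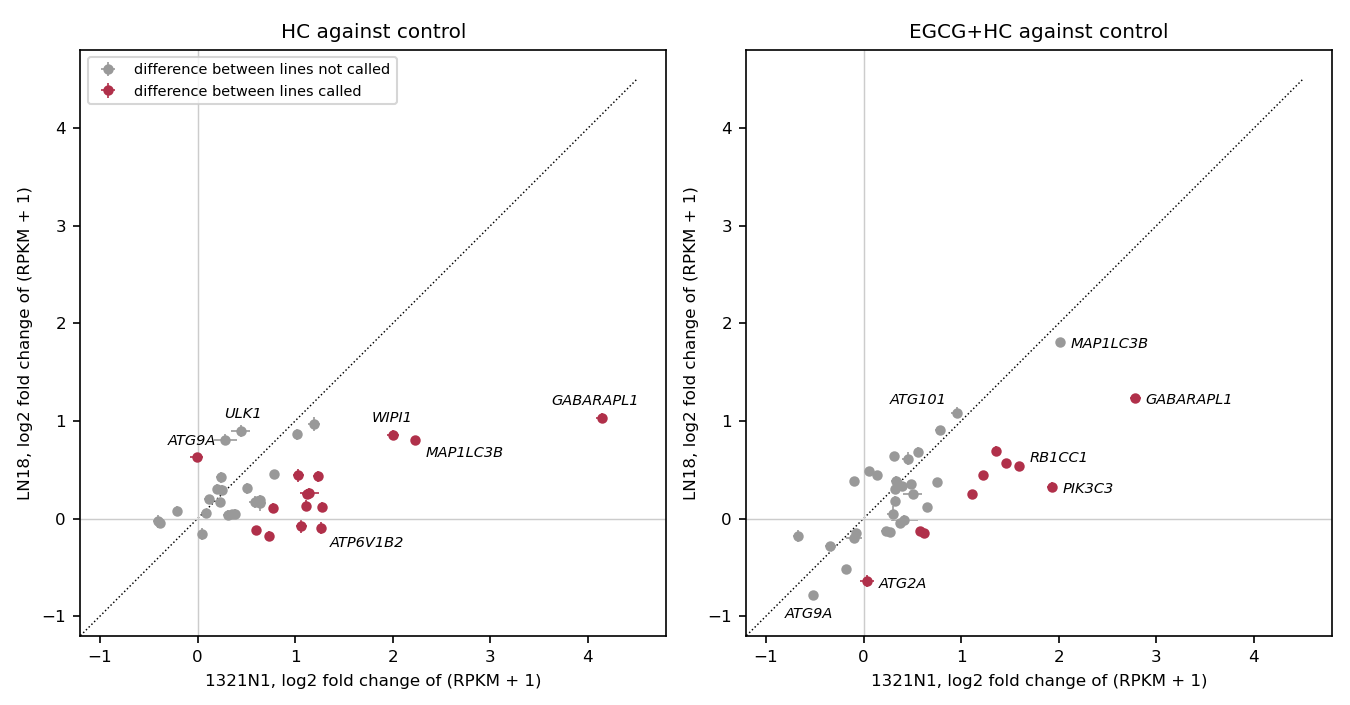
Change with HC (left) and EGCG+HC (right) against control in LN18 (vertical axis) and in 1321N1 (horizontal axis), as log2 fold change of (RPKM + 1) with bars of 1 SE, 1 point per member. Points in red are members whose difference between lines was called, and the dotted line marks equal change. With HC 14 of the red points lie below that line and ATG9A above it, and with EGCG+HC all 10 lie below it.

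The 5 members called higher with EGCG+HC in both lines were ATG101, ATP6V1B2, GABARAPL1, MAP1LC3B and UVRAG, and none was called lower in both (0 of 38). Of all genes tested in both, 14% were higher and 10.8% lower in both lines, so that the 5 of 38 lie near the share of all genes. Called with at least 1 treatment were 25 of 38 members in 1321N1 and 15 of 38 in LN18, where 50.4 and 53.6% of all genes were. Called in none of the 6 comparisons with control were 10, namely ATG3, ATG4B, ATG5, ATG7, ATG16L1, BECN1, OPTN, LAMP1, LAMP2 and HEXA, and 30% of all genes tested in the 6 were called in none.

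Other genes of the pathway were counted from lists by function, which were also chosen with earlier results of these data known. Their counts stand against the shares of all genes called higher and lower given above, which with HC were 18.8 and 17.7% in 1321N1 and 9.48 and 2.26% in LN18, with EGCG+HC 23.1 and 18.0% and 24.1 and 22.2%, and with EGCG in LN18 9.11 and 9.70%. Of 17 other selective autophagy receptors listed, all tested in 1321N1, 8 were called higher and 1 lower with HC and 6 higher and 0 lower with EGCG+HC. SQSTM1, the receptor p62, stood at 33.6, 31.6 and 32.8 RPKM in 1321N1 controls, 57.8, 61.9 and 67.1 RPKM with EGCG, 403, 383 and 391 RPKM with HC and 180, 183 and 189 RPKM with EGCG+HC. As for GABARAPL1, the 4 groups did not overlap and HC was the highest (3.55, SE 0.0368, adjusted p = 4.99e-09). In LN18, SQSTM1 rose from 65.4 to 69.7 RPKM in controls to 130 to 149 RPKM over the 3 treatments. The kinase TBK1, which phosphorylates receptors, rose in 1321N1 with EGCG+HC (1.66), and CCPG1, a receptor for the endoplasmic reticulum, was called higher with HC in both lines (1.51 and 1.60). In LN18, 4 receptors were higher and 1 lower with EGCG+HC, 5 and 0 with HC, and 5 and 0 with EGCG.

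Of 16 other genes of early autophagy tested, 7 were higher and 1 lower in 1321N1 both with HC and with EGCG+HC, and 3 higher and 1 lower in LN18 with EGCG+HC. NRBF2, a subunit of the lipid kinase complex, rose with EGCG+HC in 1321N1 (0.89) and in LN18 (2.13, from a mean of 9.02 to 42.8 RPKM), and TMEM41B, a lipid scramblase, rose with HC in both (1.73 and 0.95). Genes of autophagosome-lysosome fusion counted 2 higher and 3 lower of 13 in 1321N1 and 3 higher and 6 lower of 14 in LN18 with EGCG+HC. VPS16, a shared subunit of the HOPS and CORVET tethers, fell by 0.85 in 1321N1 and by 1.75 in LN18, and PLEKHM1, a lysosomal adaptor, rose in 1321N1 (1.63).

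The list of other MiT/TFE factors and their regulators counted 7 higher and 0 lower of 15 in 1321N1 with EGCG+HC. In LN18 it counted 7 higher and 3 lower of 16 with EGCG+HC. FNIP1 and FLCN, partners in a complex acting on Rag GTPases, rose in 1321N1 (2.20 and 1.51) and in LN18 (1.53 and 1.23). Other hydrolases and their carriers counted 9 higher and 7 lower of 42 in 1321N1 and 7 higher and 6 lower of 44 in LN18 with EGCG+HC, and with HC 9 higher and 5 lower of 40 and 10 higher and 0 lower of 43. GLA, alpha-galactosidase A, rose with HC in both lines, from a mean of 4.87 to 47.8 RPKM in 1321N1 (3.06) and of 28.5 to 57.4 RPKM in LN18 (0.98). It does not stand for its list, whose median log2 fold change with HC was 0.16 in 1321N1 and 0.33 in LN18. With EGCG+HC the list medians were -0.05 and 0.08. The other V-ATPase subunits counted 8 higher and 2 lower of 15 in 1321N1 with HC and 0 higher and 0 lower of 15 in LN18 with HC. With EGCG+HC they counted 6 higher and 2 lower of 16 in 1321N1 and 5 higher and 2 lower of 15 in LN18, where TCIRG1 fell by 1.71. ATP6V1C2, with a mean of 0.213 RPKM in LN18 controls and 6.53 RPKM with EGCG+HC, passed the filter there through the EGCG+HC libraries, so that its call had to go in that direction, and its fold depends on the pseudocount.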

How the data were processed

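The authors sequenced TruSeq RNA libraries in paired ends, trimmed the reads, ran FastQC and mapped them to the build GRCh37 (hg19), and the deposited RPKM values, 1 per gene and library, came from CLC Genomics Workbench. For the gene annotation and the counting rule, nothing is given in the sources used here. No counts were used. The number of counted reads was recovered from the steps between low RPKM values of genes with 1 exon, of which 62.7 to 91.9% lay within 0.1 of a whole number (71 to 476 values per library). This share was lowest in 1321N1 EGCG libraries 2 and 3 (62.7 and 64.8%), and it is too low for a count test. At 1 RPKM in 1 kb, counting error alone is 17.7 to 26.9%.

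The log2 of RPKM + 1 was fitted in R 4.3.3 by limma 3.58.1 with a mean-variance trend. Genes entered if every sheet used listed them and their mean over the fitted libraries reached 1 RPKM. Every adjusted p is that of limma, Benjamini-Hochberg adjusted over all genes tested, and a call required 0.05 or less together with a 1.5-fold change or more. Comparisons of 2 groups used their 6 libraries, and interactions and differences between lines used 12. Groups came from the sample labels and doses from the paper. Tables were made with Python 3.11.15. The test was checked on simulated data. Coordinates of genes are from GENCODE on GRCh37, promoter windows from RefSeq on GRCh38.

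The members and lists were chosen with earlier results of these data known. Values of every library are given for members called with EGCG+HC against control in either line at an absolute log2 fold change of at least 1, and for the 2 largest called changes in each other comparison. UVRAG, CTSL, TFE3, GABARAP and SQSTM1 were added after their values were seen. Of each other list up to 4 called genes per comparison may be named. Same-numbered libraries did not deviate together (correlations over 0.1 in 1 of 18 pairs in each line), so that libraries were not paired. Alternatives were a pseudocount of 0.1 RPKM, no filter, a mean of at least 10 RPKM, rescaling to the total of genes that are not mitochondrial, quantile normalization, no fold limit, a replicate block, all 12 libraries of a line and leaving out each library. The fit without EGCG libraries 2 and 3 of 1321N1 was chosen after seeing the data.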

Additional observations from a re-analysis of the deposited data

Results flagged for a closer look

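The change with treatment differed between LN18 and 1321N1, by a limma test of the difference itself, for the following members, and each value is the LN18 change minus the 1321N1 change in log2(RPKM + 1). Under EGCG+HC the difference was -1.06 for RB1CC1, -1.61 for PIK3C3, -0.77 for WIPI1, -0.68 for ATG2A (-0.58 and under the fold limit with quantile normalization), -1.55 for GABARAPL1 and -0.77 for NBR1. Among V-ATPase genes it was -0.71 for ATP6V0D1, -0.85 for ATP6V1A, -0.66 for ATP6V1B2 and -0.89 for ATP6V1H.

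Under HC the difference was -0.80 for RB1CC1, -1.14 for ATG101, -0.59 for PIK3C3 (-0.52 and under the fold limit on rescaling), -0.72 for AMBRA1, -1.14 for WIPI1 and -0.87 for WIPI2. It was 0.64 for ATG9A, -0.89 for ATG4A, -0.66 for ATG12 (-0.57 and under the fold limit on rescaling over genes other than mitochondrial ones), -1.43 for MAP1LC3B and -3.11 for GABARAPL1. For the pump genes it was -0.91 for ATP6V0D1, -1.15 for ATP6V1A, -1.36 for ATP6V1B2 and -0.98 for ATP6V1H. HC was given at 20 µg/ml to 1321N1 and at 10 µg/ml to LN18, so that dose and line cannot be told apart in these values or in those under EGCG+HC.

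Under EGCG, at 50 µg/ml in both lines, the difference was 0.64 for ATG13, 0.90 for MAP1LC3B, 0.75 for GABARAPL1 and 0.65 for CTSD. The GABARAPL1 value depended on the pseudocount and was 0.33 (adjusted p = 0.0615 in limma) with 0.1 RPKM. The CTSD value fell under the fold limit with quantile normalization (0.57). It also did so without 1321N1 EGCG library 1 (0.57) or LN18 control library 2 (0.58).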

How the results depend on the processing

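None of the 163 called member results changed direction under the alternatives in which it was tested. Without a fold limit the members called were 34 (1321N1 EGCG+HC), 19 (EGCG), 33 (HC), 32 (EGCG+HC against EGCG) and 34 (against HC), in LN18 35, 34, 23, 28 and 28 in the same order, beyond the sum 26 in each line, between lines 26 (EGCG+HC), 30 (HC) and 19 (EGCG), and between controls 30. With a mean of at least 10 RPKM they were 8 (1321N1 EGCG+HC), 0 (1321N1 EGCG), 5 (1321N1 EGCG+HC against HC), 4 and 5 (LN18 EGCG+HC against EGCG and HC), 5 and 9 (beyond the sum in 1321N1 and LN18), 6 (EGCG+HC between lines) and 6 (controls), as fewer members were tested. For 1321N1 EGCG the count of 2 became 1 under quantile normalization, 0 on rescaling and 1 without EGCG libraries 2 and 3. Leaving out single libraries gave 14 to 15 (1321N1 EGCG+HC), 1 to 2 (EGCG), 19 to 21 (HC), 10 to 12 (against EGCG) and 7 to 9 (against HC), in LN18 9 to 10, 5 to 7, 8 to 8, 8 to 8 and 10 to 11, beyond the sum 8 to 10 and 15 to 16, between lines 10 to 10 (EGCG+HC), 14 to 16 (HC) and 3 to 4 (EGCG), and between controls 12 to 13. With a replicate block all 163 member calls held, although the numbers do not pair the libraries (median correlation -0.00078 in 1321N1 and -0.0056 in LN18). Of the 163, 11 were lost under quantile normalization, 17 on rescaling and 1 with a pseudocount of 0.1 RPKM, and the cause was not tested. Rescaling moved the median of all genes by -0.13 (LN18 HC, quantile), -0.11 (LN18 EGCG+HC against HC, other than mitochondrial) and 0.10 (LN18 beyond the sum, quantile), and the share of lower calls under quantile normalization from 36.9 to 53.3% (1321N1 EGCG), from 19.2 to 37.5% (LN18 HC) and from 67.1 to 54.5% (EGCG between lines). TFEB and ULK2 lay under the limit on the mean and were not tested.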
